A study of Homo sapiens with 6 samples.

Results

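GPC4 and PODXL are genes of heavily glycosylated proteins of the cell surface, and they were taken as 2 named rows of the 986 genes in the authors' deposited table. They were selected on these same values: both were abundant, varied little between libraries and changed in opposite directions. For that reason their values in this comparison are a description and they are given no test. RNA sequencing was made of the K1 line, established human cells of a papillary thyroid carcinoma, grown with serum. The control group of 3 libraries came from K1 cells transfected with a control, and the miR-31 KO group of 3 libraries came from K1 cells transfected with a single guide RNA against miR-31, a microRNA. The labels do not say whether the targeted cells were 1 clone or a pool, nor whether the libraries of a group came from separate cultures, so the spread between libraries may be technical. Each group held a library that stood apart: over 521 listed genes with a mean of at least 50, control replicate 1 differed from the other controls by a root mean square of 0.774 and 0.777 on the log2(value + 1) scale, against 0.465 between those controls, and miR-31 KO replicate 3 differed by 0.770 and 0.787, against 0.377.

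Glypicans such as GPC4 are proteins held on the outer face of the cell membrane by a glycosylphosphatidylinositol anchor. They carry heparan sulfate chains, which bind growth factors and morphogens of the FGF, Wnt, Hedgehog and BMP families, and enzymes can release the whole protein from the membrane. PODXL encodes podocalyxin, a transmembrane sialomucin related to CD34. Its extracellular part bears many sialylated O-glycans that give the surface a negative charge, and its short cytoplasmic tail binds adaptor proteins that link it to the cortical actin network. It is best known for keeping apart the foot processes of kidney podocytes and for marking the apical surface when epithelial cells form a lumen, and it is also made by endothelial cells and some carcinomas.

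GPC4 was lower and PODXL was higher in miR-31 KO than in control. The values are normalized read counts as the authors deposited them. For GPC4, control replicates 1, 2 and 3 had 1664, 1858 and 1702, and miR-31 KO replicates 1, 2 and 3 had 273, 242 and 238. All 3 control libraries lay well above all 3 miR-31 KO libraries, and the lowest control was 6.11 times the highest KO library. The group means were 1741 ± 102 in control and 251 ± 19.1 in miR-31 KO (SD, n = 3), which is 6.95-fold lower. The deposited log2 fold change of miR-31 KO over control was -2.80.

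For PODXL, control replicates 1, 2 and 3 had 3789, 4542 and 4155 normalized counts, and miR-31 KO replicates 1, 2 and 3 had 13782, 14232 and 13676. Here the KO libraries were the high group, and the lowest of them was 3.01 times the highest control. The group means were 4162 ± 376 in control and 13897 ± 295 in miR-31 KO (SD, n = 3), a 3.34-fold higher level. The deposited log2 fold change was 1.74. Within control, replicate 1 was the lowest library and replicate 2 the highest for both genes. Both sizes depend on the authors' scaling: scaled again by median of ratios over the listed genes, which are selected, the log2 ratio of means was -3.51 for GPC4 and 1.03 for PODXL, with both directions kept.

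**Figure D1:**
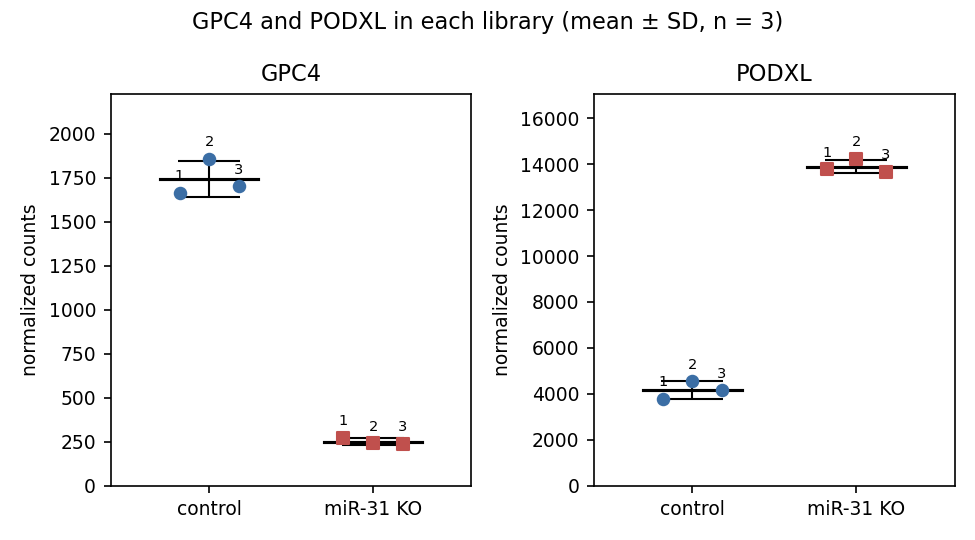
Normalized counts (vertical axes, starting at 0) of GPC4 and PODXL in each library, with the replicate number above each point; the long line is the group mean and the bar is the SD (n = 3). GPC4 falls from 1741 ± 102 in control to 251 ± 19.1 in miR-31 KO, PODXL goes from 4162 ± 376 to 13897 ± 295, and the groups do not overlap for either gene.

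The table holds genes that the authors had already selected, with adjusted p-values below 0.05 and at least a 1-unit difference on the log2 scale. By the ratio of adjusted p to p of the first listed gene, 16806 genes were tested. This number holds only if that gene has the smallest p. Of these genes 5.87% were listed, 3.53% as higher and 2.34% as lower in miR-31 KO. The shares of gene lists given below count all genes of a list, tested or not, so the 5.87% beside them has a different base. Both GPC4 and PODXL are among the listed genes by the way they were chosen, and nothing is read from that. Groups did not overlap for either gene, and they did not overlap for 92.6% of the listed genes.

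The size of the change and the level placed these genes differently. The difference for PODXL was the 374th largest of 593 rises, below the median log2 fold change of 2.14 of the higher genes. That for GPC4 was the 73rd largest of 393 falls, where the median of the lower genes was -1.61. By mean level over the 6 libraries PODXL ranked 15th and GPC4 108th of the 986 genes. PODXL moved from the 31st highest level among listed genes in control to the 14th in miR-31 KO, and GPC4 moved from the 65th to the 255th.

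The spread between libraries was small for both genes, which is part of why they were chosen. The coefficient of variation of GPC4 was 5.88% in control and 7.63% in miR-31 KO. For PODXL it was 9.04% and 2.12%. Among the 174 listed genes with a mean of at least 500 normalized counts the medians were 16.0% and 18.7%, and 10 of these genes varied less than GPC4 in both groups, while 2 varied less than PODXL in both. The libraries that stood apart were placed, as a description, on a scale of position between the groups. On this scale from 0 at the other libraries of its own group to 1 at the opposite group, control replicate 1 was at 0.0338 for GPC4 and -0.117 for PODXL, and miR-31 KO replicate 3 was at -0.0403 and 0.0195. The medians over all listed genes were 0.0544 and 0.0939. For PODXL control replicate 1 thus lay on the far side of the other controls from the KO group, by more than the size of that median. Without both of these libraries the log2 ratio of means was -2.79 for GPC4 and 1.69 for PODXL.

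**Figure D2:**
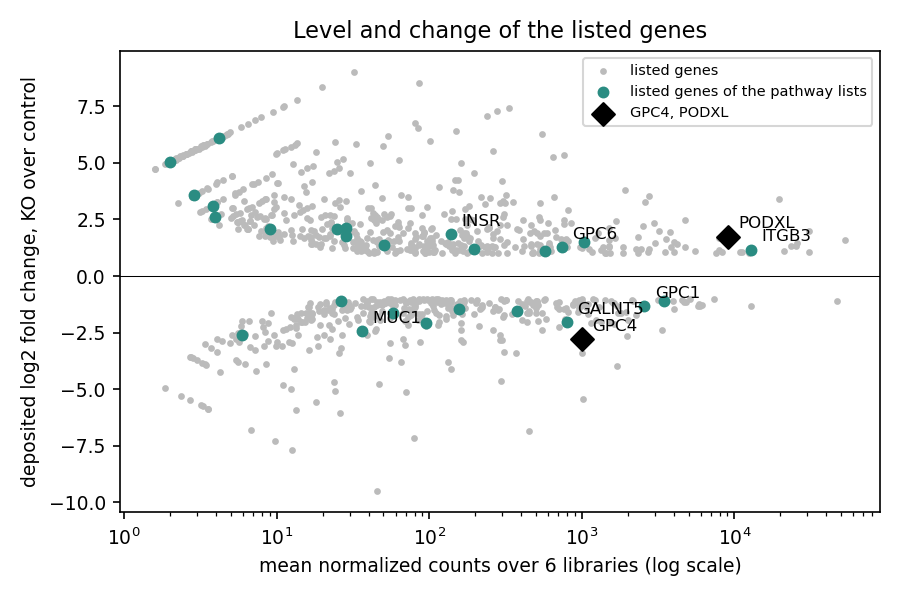
Mean normalized counts over the 6 libraries (horizontal axis, log scale) against the deposited log2 fold change of miR-31 KO over control (vertical axis) for the 986 listed genes; diamonds are GPC4 and PODXL, and green points are listed genes of the 10 pathway lists. The empty band around 0 is the authors' selection; PODXL lies at the abundant end with a log2 fold change of 1.74, and GPC4 lies at -2.80.

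The guide RNA was directed at miR-31, so the sequence that a microRNA uses to find its targets was looked up in both transcripts. The mature hsa-miR-31-5p lies on chromosome 9 from 21512158 to 21512178 on the minus strand (RefSeq, GRCh38.p14). It is shown because its seed, bases 2 to 8 in capitals, defines the matches that follow.
hsa-miR-31-5p: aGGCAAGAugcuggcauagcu
A message matches the whole seed where it reads TCTTGCC, and a match to bases 2 to 7, CTTGCC, counts as a 7mer-A1 when an A follows. A match with both features is an 8mer. Only the sense strand of the 3' UTR was searched, and only for the seed of hsa-miR-31-5p. The counts of matches below cover no other product of miR-31.

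GPC4 (ENSG00000076716.8) lies on chromosome X from 133300103 to 133415490 on the minus strand (GENCODE 29, GRCh38) and has 1 annotated transcript. Its 3' UTR of 2764 bases held 1 match, a 7mer-A1 whose first matched base is base 1192 after the stop codon. Among 205 other listed genes with a 3' UTR of 0.67 to 1.5 times that length, 30.2% held a match of 7 bases or more. The match is shown with its flanks, the matched bases in capitals, from chrX:133301659-133301685 on the minus strand.
GPC4 7mer-A1: aaacaaaggaCTTGCCAtggttcacag
Whether miR-31 acts on this match was not tested.

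PODXL (ENSG00000128567.16) lies on chromosome 7 from 131500262 to 131558217 on the minus strand (GENCODE 29, GRCh38). What was found there depends on which 3' UTR is read. The 2 transcripts annotated as protein coding end 180 bases after the stop codon, and that stretch held 0 matches. Of 87 other listed genes with a 3' UTR of like length, 1.15% held a match. A longer transcript of 6170 bases, PODXL-203, annotated as a target of nonsense-mediated decay, continues the same last exon, and the RefSeq gene also reaches to 131500271. With all annotated 3' UTR sequence merged, the UTR was 4337 bases long and held 2 matches of 7 bases or more. With matches to bases 2 to 7 alone counted as well, it held 5. A match of 7 bases or more was present in 43.8% of 160 other listed genes of like merged length, and 12.5% held 2 or more. The 2 such matches in PODXL are shown, their bases in capitals, the 8mer from chr7:131501841-131501868 and the 7mer-m8 from chr7:131502223-131502249, both on the minus strand. The lower-case flank of the 8mer opens with a match to bases 2 to 7 alone.
PODXL 8mer: cttgccttgcTCTTGCCAccaggacacc
PODXL 7mer-m8: tttgcttcctTCTTGCCcagcgctggg
They begin at base 2453 and base 2072 after the stop codon of the coding transcripts. The deposited values are totals per gene and do not tell which 3' UTR the reads came from. A match of letters is a description and no measure of binding.

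GPC4 is one of 6 glypicans. Of the other 5, 3 were listed, beside 5.87% of all tested genes. Of these 3, 2 were lower and 1 was higher in miR-31 KO, beside 39.9% lower among all listed genes. GPC1, the glypican most widely made in adult tissues, had 2716, 4108 and 4175 normalized counts in the 3 controls and 1290, 1364 and 1715 in the KO replicates. The groups did not overlap, and GPC1 fell with a deposited log2 fold change of -1.33 (adjusted p = 1.44e-14 in the authors' deposited table). GPC6, the glypican closest to GPC4 in sequence, had 468, 439 and 385 in control, against 1244, 1200 and 703 in miR-31 KO. All KO libraries were above all controls, with KO replicate 3 the lowest of them, and GPC6 rose with a deposited log2 fold change of 1.28 (adjusted p = 4.61e-08 in the authors' deposited table). GPC2, a glypican of the developing nervous system, was scarce and fell from 35.8 ± 11.1 to 16.5 ± 2.51 (adjusted p = 0.0372 in the authors' deposited table). GPC3 and GPC5 were not listed and have no value here.

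Levels of different glypicans were compared per kilobase of merged exon. In control the order was GPC1 with 563 ± 126 normalized counts per kb, GPC4 with 351 ± 20.6, GPC6 with 66.6 ± 6.49 and GPC2 with 9.36 ± 2.90 (SD, n = 3). In miR-31 KO it was GPC1 with 223 ± 34.8, GPC6 with 162 ± 46.4, GPC4 with 50.5 ± 3.85 and GPC2 with 4.32 ± 0.655. GPC4 and GPC6 thus changed places. In the KO libraries GPC1 and GPC6 had 198 against 192 per kb in replicate 1, 209 against 186 in replicate 2 and 263 against 109 in replicate 3. They were thus close in replicates 1 and 2 and far apart in replicate 3, and GPC4 was well below GPC6 in each KO library. Within each library the share of a gene in the sum does not depend on how that library was scaled. GPC4 made up 35.8% ± 3.91 of the per-kb sum of the 4 listed glypicans in control and 11.5% ± 0.705 in miR-31 KO. The sum itself was 990 ± 135 normalized counts per kb in control and 441 ± 14.2 in miR-31 KO. A share thus also moves with the other glypicans in the sum. GPC6 made up 6.87% ± 1.59 and 36.6% ± 9.53, with 25.6% in KO replicate 3 against 42.8% and 41.4% in KO replicates 1 and 2. GPC1 made up 56.4% ± 5.77 and 50.9% ± 9.71, with overlapping groups. On the same scale PODXL had 605 ± 54.7 normalized counts per kb in control and 2022 ± 42.9 in miR-31 KO, with all 8 annotated transcripts in its exon length.

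**Figure D3:**
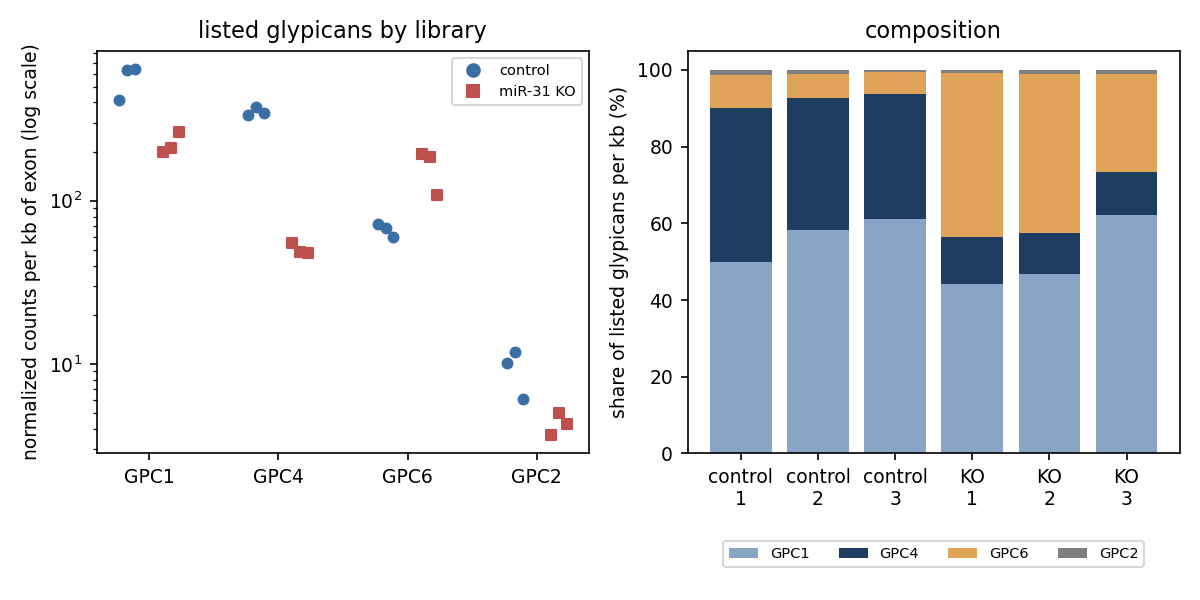
Left, normalized counts per kb of merged exon (log scale) of the 4 listed glypicans, 1 point per library; right, the share of each in their per-kb sum in each library. GPC4 made up 35.8% ± 3.91 of the sum in control but 11.5% ± 0.705 in miR-31 KO. For GPC6 the shares were 6.87% ± 1.59 and 36.6% ± 9.53. The sum itself was 990 ± 135 in control and 441 ± 14.2 in miR-31 KO.

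Other carriers of glycosaminoglycan chains were counted in 2 lists. Of 13 other heparan sulfate proteoglycans, such as syndecans and basement membrane proteins, 2 were listed (15.4%, beside 5.87% of tested genes), both lower, beside 39.9% lower among all listed genes. HSPG2, which encodes perlecan of basement membranes, had 4372, 5329 and 4545 normalized counts in control and 2251, 2278 and 2055 in miR-31 KO, without overlap. Its deposited log2 fold change was -1.11 (adjusted p = 7.63e-24 in the authors' deposited table). COL18A1, the source of the collagen fragment endostatin, fell from 229 ± 55.8 to 84.0 ± 14.5. Of 18 chondroitin and keratan sulfate proteoglycans 4 were listed (22.2%), 3 lower and 1 higher. CD74, the invariant chain of class II antigen presentation, fell from 154 ± 38.2 to 36.0 ± 10.3, the brain proteoglycan gene BCAN from 87.1 ± 39.7 to 28.3 ± 6.56, and FMOD from 10.3 ± 4.50 to 1.59 ± 0.243. LUM, a collagen-binding proteoglycan, was listed at 0 in all controls and had 7.62, 5.87 and 11.5 in the KO replicates.

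Of 36 genes that build or edit heparan sulfate, 2 were listed, both higher, beside 60.1% higher among all listed genes. The share listed, 5.56%, is close to the 5.87% of all tested genes. HPSE encodes heparanase, the enzyme that cuts heparan sulfate chains, and had 317, 421 and 357 normalized counts in control and 853, 806 and 693 in miR-31 KO. The groups did not overlap, and HPSE rose with a deposited log2 fold change of 1.10 (adjusted p = 3.66e-08 in the authors' deposited table). HS6ST3, a heparan sulfate 6-O-sulfotransferase, rose from 28.1 ± 13.3 to 72.1 ± 18.3. None of the chain polymerases EXT1 and EXT2 or of the N-deacetylase/N-sulfotransferases was listed. No gene of the 30 for anchor synthesis and release was listed either. A gene that is not listed has no value here and cannot be called unchanged; the authors' test is not named in the sources used here, and a count at an unadjusted p cannot be had from selected genes.

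Ligands, receptors and partners of glypicans that were listed were all higher, 5 of 38 (13.2%, beside 5.87% of tested genes, and beside 60.1% higher among all listed genes). INSR, the insulin receptor, with which circulating GPC4 has been reported to interact, had 60.6, 65.1 and 55.0 normalized counts in control and 248, 223 and 179 in miR-31 KO. The groups lay far apart, and INSR rose with a deposited log2 fold change of 1.85 (adjusted p = 2.99e-11 in the authors' deposited table). UNC5B, a netrin receptor, rose from 540 ± 92.2 to 1521 ± 268, and CDON, a Hedgehog co-receptor, rose from 120 ± 13.2 to 273 ± 52.3. LRRTM4, a postsynaptic protein that binds glypicans in neurons, was listed at 0 in all controls and had 1.51, 8.02 and 2.51 in the KO replicates. The growth factor gene FGF7 had 0.00649, 1.00 and 0 in control and 3.93, 9.76 and 2.44 in miR-31 KO, so its fold rests on control replicate 2 alone and none is given.

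PODXL belongs to the CD34 family, and of 19 CD34 family and other sialomucin genes 3 were listed. Leaving PODXL out, 2 of the other 18 were listed, 1 in each direction, beside 5.87% of all tested genes. MUC1, an epithelial transmembrane mucin that also lies on apical surfaces, had 63.8, 58.1 and 61.9 normalized counts in control and 11.3, 14.8 and 7.64 in miR-31 KO. The groups did not overlap, and MUC1 fell with a deposited log2 fold change of -2.43 (adjusted p = 6.13e-09 in the authors' deposited table), opposite to PODXL. GYPC, a glycophorin of the membrane skeleton, had 2.11, 0.000322 and 0 in control and 8.59, 3.23 and 8.83 in miR-31 KO, and its fold rests on control replicate 1. CD34 and PODXL2, the closest relatives of PODXL, were not listed. None of the 20 genes of adaptors and cortical partners of podocalyxin, such as the ezrin gene EZR and the scaffold gene SLC9A3R1, was listed, beside the same 5.87%.

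Podocalyxin carries sialylated O-glycans, and the genes of O-glycan core and sialic acid enzymes were counted together. Of these 59 genes 6 were listed (10.2%, beside 5.87% of tested genes), 4 higher and 2 lower, with a median log2 fold change of 2.06 beside 1.27 over all listed genes. The 2 lower genes belong to the family that starts mucin-type O-glycans. GALNT5, an enzyme that attaches the first sugar of O-glycans, had 1034, 1488 and 1338 normalized counts in control and 274, 278 and 380 in miR-31 KO. It fell without overlap, with a deposited log2 fold change of -2.05 (adjusted p = 2.00e-24 in the authors' deposited table), and GALNT18 of the same family fell from 558 ± 80.0 to 193 ± 55.3.

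The 4 higher genes all encode sialyltransferases, and all were low. ST3GAL5, which makes the ganglioside GM3 and so acts on lipids, had 9.77, 9.02 and 12.8 in control and 59.2, 51.0 and 29.9 in miR-31 KO (adjusted p = 2.49e-05 in the authors' deposited table). ST6GALNAC5, which also acts on gangliosides, had 3.42, 16.0 and 8.84 against 26.1, 24.3 and 70.1, and its log2 ratio of means went from 2.09 to 1.42 without KO replicate 3. ST8SIA2, a polysialyltransferase, rose from 3.40 ± 3.19 to 14.6 ± 5.66, with a log2 ratio of 2.11 that became 3.20 without control replicate 2. ST8SIA5, another ganglioside sialyltransferase, rose from 0.998 ± 0.977 to 6.88 ± 2.78, with a log2 ratio of 2.79 that became 3.75 without control replicate 3. By these roles the 4 higher genes encode enzymes of gangliosides or of polysialic acid.

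Of 28 selectin and integrin genes 2 were listed (7.14%, beside 5.87% of tested genes), both higher, beside 60.1% higher among all listed genes. ITGB3, the integrin beta-3 chain, had 9916, 7173 and 6791 normalized counts in control and 19259, 19751 and 14503 in miR-31 KO, without overlap. Its deposited log2 fold change was 1.16 (adjusted p = 4.97e-13 in the authors' deposited table). ITGAM was listed with overlapping groups, and its log2 ratio of means of 1.79 became 0.65 without KO replicate 3. Over the 10 lists, 26 of 265 genes other than GPC4 and PODXL were listed (9.81%, beside 5.87% of tested genes). Of these, 16 were higher and 10 lower, beside 60.1% higher among all listed genes.

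**Figure D4:**
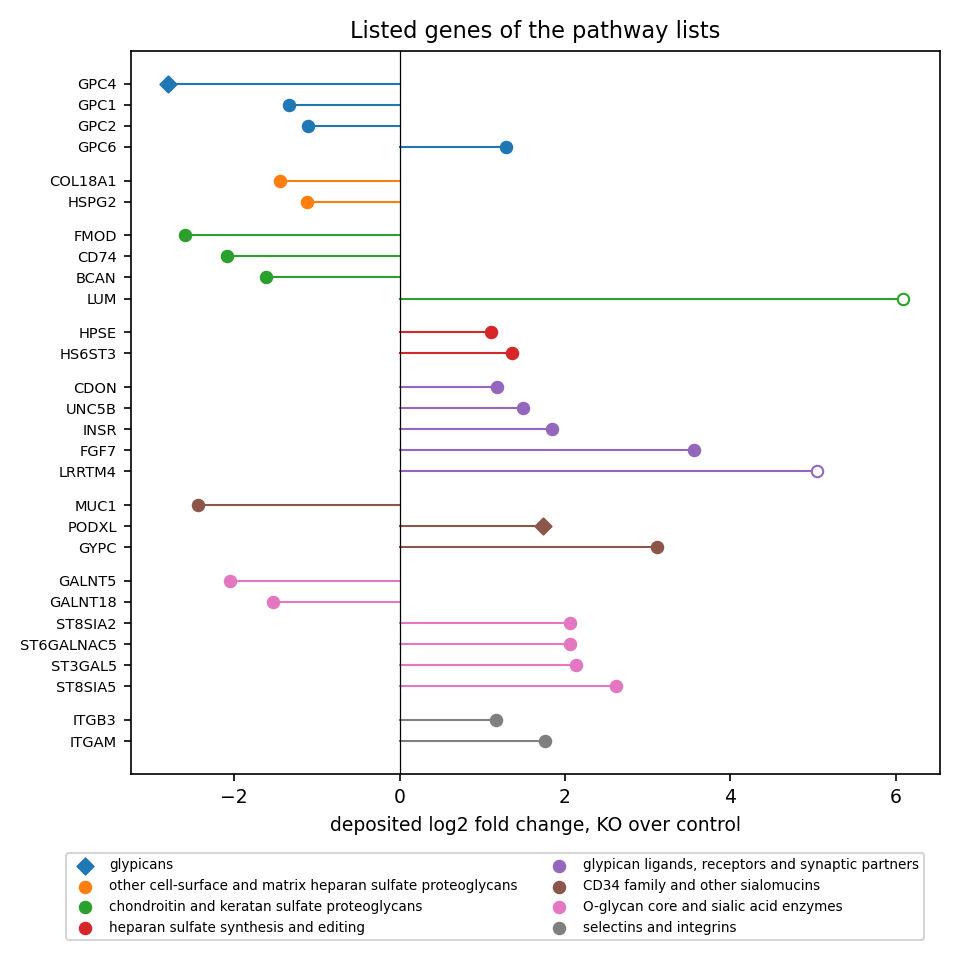
Deposited log2 fold change of miR-31 KO over control (horizontal axis) for every listed gene of the pathway lists, coloured by list; diamonds are GPC4 and PODXL, and open circles are genes listed at 0 in all controls, whose fold has no meaning as a size. Besides GPC4, which was chosen for its change, GPC1, GPC2, HSPG2 and COL18A1 point to lower values and GPC6 to higher ones. All 5 listed ligands, receptors and partners of glypicans point to higher values, with FGF7 and LRRTM4 at or near 0 in control. Among all listed genes 39.9% were lower and 60.1% higher.

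PODXL and GPC4 are also made by cell types other than thyroid epithelium, so markers of these were counted, beside 5.87% of all tested genes listed. Of 9 podocyte markers none was listed. Of 12 endothelial markers 3 were listed (25%), and their summed level was 1386 to 2232 normalized counts in control and 4482 to 6158 in miR-31 KO. TIE1 and KDR, receptors of endothelial cells, rose and the transcription factor gene ERG fell, with deposited log2 fold changes of 2.32, 1.02 and -1.82. The rise of the sum came mostly from TIE1, with group means of 996 in control and 4971 in miR-31 KO. Those of KDR were 213 and 432, and those of ERG were 474 and 134. Of 10 pluripotency markers SOX2 was listed (10%), at 3.92 to 7.50 in control and 19.9 to 30.7 in miR-31 KO. Of 8 fibroblast markers LUM and PDGFRA were listed (25%), with sums of 2.01 to 8.49 and 26.7 to 42.5, and of 12 leukocyte and platelet markers CD3D and ITGAM were listed (16.7%), with sums of 5.62 to 20.03 and 21.9 to 97.7. All libraries were made from the K1 line. A listed marker is thus RNA measured in that culture and does not show that cells of another type were present. How these genes relate to the values of GPC4 and PODXL was not tested. In bulk samples a change in the number of cells making an RNA and in the RNA per cell cannot be told apart. Of 14 thyroid follicular markers 3 were listed (21.4%), all lower, beside 39.9% lower among all listed genes. SLC26A4 fell from 71.0 ± 15.5 to 31.1 ± 5.65 normalized counts, and DUOXA1 from 47.0 ± 16.2 to 1.28 ± 0.453. DUOX2 had 16.4, 16.0 and 38.4 in control and 11.4, 0 and 0 in miR-31 KO. The other 11 have no value here, so the labelled cell type could be checked only in part. Neither miR-31 nor its host gene was listed, so the targeting itself gave no check of the labels.

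The genes whose profile over the 6 libraries was most like each member were taken from 775 listed genes with a mean of at least 10 normalized counts. Likeness was the root mean square difference of log2(value + 1) after centring each gene on its mean. The nearest to PODXL were CXCL3, a neutrophil chemokine, IL32, a cytokine, PLEKHG4B, HRNR and SLC46A3, with differences of 0.0995, 0.107, 0.124, 0.125 and 0.132. Among these CXCL3 went from 775 ± 112 to 2501 ± 255 normalized counts and IL32 from 253 ± 29.3 to 937 ± 80.1. Among the nearest to GPC4 were ARL10, CHRFAM7A, ACSS3 and WDR72, with larger differences of 0.267, 0.275, 0.283 and 0.285. Of these ACSS3 went from 282 ± 29.7 to 39.5 ± 14.8 normalized counts and WDR72 from 562 ± 39.5 to 55.6 ± 2.82. CHRFAM7A is a partial copy of a nicotinic receptor gene, and its reads may be split with that gene. Likeness here includes the difference between the groups, on which the members were chosen. The genes near PODXL had deposited log2 fold changes of 1.69 to 1.89, beside its 1.74. Those named near GPC4 had -3.33 to -2.78, beside its -2.80. No glypican, sialomucin or other gene of the pathway lists was among these 9 genes. Nothing is read from that, since only 26 of all 986 listed genes are pathway genes other than the members.

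**Figure D5:**
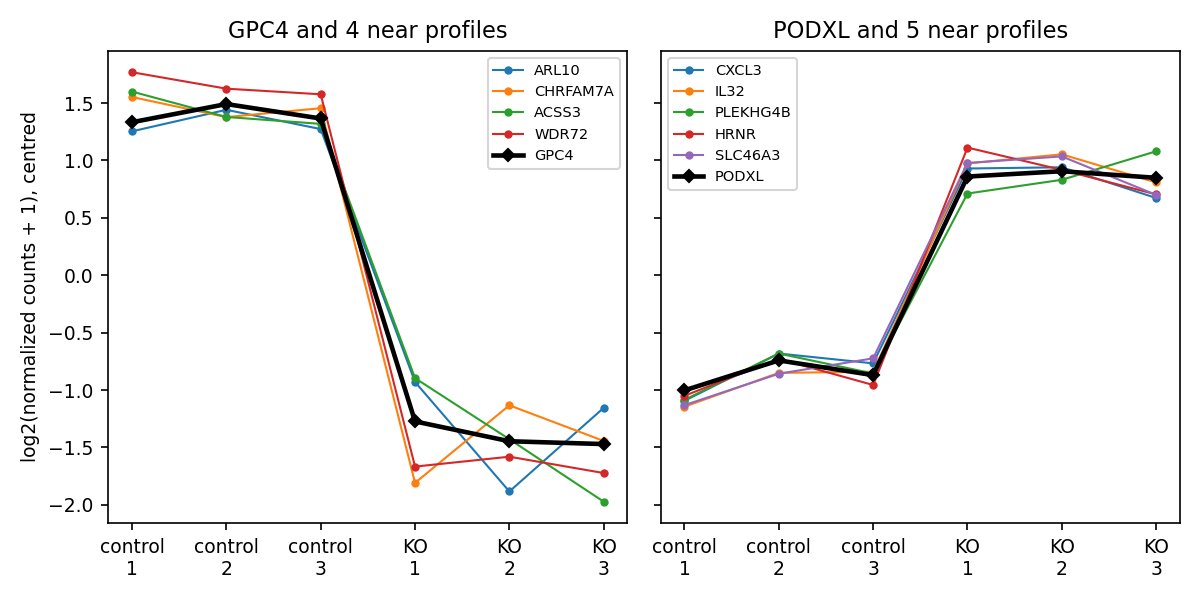
Centred log2(normalized counts + 1) in each of the 6 libraries (horizontal axis) for GPC4 with 4 listed genes near it and PODXL with the 5 nearest; lines join the values of 1 gene. The genes near PODXL follow it within a root mean square difference of 0.0995 to 0.132, and those near GPC4 within 0.267 to 0.285.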

How the data were processed

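RNA sequencing of K1 cells gave 6 libraries, grouped by their titles into 3 control and 3 miR-31 KO; the series text speaks of duplicates. The submitters' processing notes name the tools Bowtie2, RSEM and HISAT and, as builds, hg38 and hg19, without roles. How the values were normalized and tested is not given in the sources used here. Each library has 1 column of a signal, the normalized read count of each gene as deposited by the authors. Fractions occur in each column. Of values under 20, 100% in control replicate 2 and 99.6% in control replicate 3 were whole multiples of 1 step (tolerance 0.1). The share was 71.3% in control replicate 1, and 33.8%, 34.1% and 37.1% in miR-31 KO replicates 1, 2 and 3. It thus differed between the groups and set control replicate 1 apart from the other controls, and why was not tested. Reads were not recovered, depth is unknown and no counting interval is given. The values of the 986 listed genes summed to between 545354 and 943360 per library, and no 2 libraries shared a value above 0. The log2 fold change, p-value and its adjusted form are likewise the authors' deposited values, and the sign of the fold change matched the group means for all 986 genes.

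Means, SDs and log2 ratios of group means were computed in Python 3.11.15 with pandas 2.3.3 and numpy 2.4.6, and the steps were tested on simulated data. Gene positions, exon lengths and 3' UTRs came from GENCODE 29 on GRCh38, matched by symbol for 966 listed genes; the authors' annotation may differ. The members and the 10 pathway and 6 marker lists were chosen with earlier results of these data known. Named were all listed members of the pathway lists (none had more than 6), listed markers and the 5 nearest profiles of each member; 1 of the latter is not reported here. The planned protein features were not analysed here. No test was run on GPC4 and PODXL. Alternatives were other scalings, pseudocounts of 1 and 0.1, filters, each library left out and the replicate block.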

Additional observations from a re-analysis of the deposited data

How the results depend on the processing

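The log2 ratio of means was -2.80 for GPC4 and 1.74 for PODXL. The deposited fold change, both pseudocounts, each library left out, and the 4 libraries without control replicate 1 and miR-31 KO replicate 3 (chosen after the data were seen) moved it by less than the spread between libraries: leaving out 1 library gave -2.86 to -2.75 for GPC4 and 1.68 to 1.81 for PODXL. With the replicate block the values were -2.79 and 1.74; the deviations of libraries sharing a number correlated at 0.20, -0.13 and 0.15 over the listed genes, so the samples were treated as unpaired. Scaling over the listed genes moved both values in the same sense: median-of-ratios scaling gave -3.51 and 1.03, the same sum gave -3.31 and 1.23, quantile normalization gave -3.05 and 1.36, and median-of-ratios scaling over genes with a mean of at least 50 gave -3.47 and 1.07. These scalings shifted the median log2 ratio over the listed genes by -0.72, -0.53, -0.46 and -0.67, and they rest on selected genes of which 60.1% were higher. Of the 24 other listed pathway genes with values above 0 in both groups, 0 changed direction under these 4 scalings. The 26 listed pathway genes became 12 when a 2-unit log2 difference was asked for. They became 14 with a minimum mean of 50, which 521 of all 986 listed genes had. Both filters leave fewer genes to count. An adjusted p under 0.01 left 19 and the 4 libraries left 24. No overlap left 25, beside 92.6% without overlap among all listed genes. Nothing particular to the pathway genes is read from these counts. The PODXL 3' UTR held 2 seed matches with all annotated sequence merged and 0 in the coding transcripts, since the merged sequence is longer. What depth limits in genes near 0 was not tested.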

Other observations

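The few listed genes around PODXL had the opposite direction. Within 5 Mb of PODXL on chromosome 7, 5 other genes were listed and all 5 were lower in miR-31 KO, beside 39.9% lower among all listed genes. On the whole chromosome 29 listed genes were lower and 26 higher, with PODXL and these 5 genes counted in. The window was chosen with earlier results of these data known, and how many genes in it were tested is not known. The nearest, the plexin gene PLXNA4, lies 565115 bp away and had a mean of 912 normalized counts in control, against 245 in the KO libraries. The imprinted gene MEST had 214 and 89.8, and the carboxypeptidase gene CPA4 had 1247 and 511. KCP had 44.5 and 17.1, and FAM180A had 22.03 and 6.87. Within 5 Mb of GPC4 on chromosome X, 2 genes were listed, in opposite directions: IGSF1 with a control mean of 227 and a KO mean of 110, and SMIM10L2A with 2.43 and 10.5. GPC3, which neighbours GPC4, was not listed.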
